A study of Mus musculus with 92 samples.

Results

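The proteasome is the protease that degrades ubiquitin-tagged proteins in the cytoplasm and nucleus. Its barrel, the 20S core, stacks rings of alpha subunits (Psma genes) on rings of beta subunits (Psmb genes), and some of the beta subunits carry the cutting sites. The 19S regulatory particle caps the barrel: a ring of ATPases (Psmc genes) unfolds the substrate, and non-ATPase subunits (Psmd genes) bind and remove ubiquitin. In the cleavage-stage embryo, proteasomes take part in clearing proteins inherited from the egg while the embryonic genome takes over.

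The members were the genes of the deposited count table whose symbol begins with Psm, a letter from a to g and a number. There were 45 such rows among 7886 genes, of 54 annotated symbols of that form. Of these, 15 encode 20S subunits, 20 encode 19S subunits or their assembly chaperones, and 9 encode other factors (4 activators, 1 inhibitor and 4 assembly chaperones of the 20S core). The remaining row, Psmc3ip, matched by symbol alone. It encodes a cofactor of meiotic recombination, lay between 8.92 and 39.9 CPM, and was left out of every count, so that 44 members are described. No row was found for 9 symbols: the immunoproteasome subunits Psmb8 and Psmb9, the testis subunit Psma8, the thymus subunit Psmb11, Psme2b, and the pseudogenes Psmb5-ps, Psmb6-ps, Psmb6-ps2 and Psmb7-ps2. They are not analysed here, and since the table holds only genes that passed the authors' filter on low levels, nothing is read from their absence.

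All embryos were wild-type C57BL/6N mice, and every group was injected. The title of each analysed cell begins with IVF (in vitro fertilisation). Zygotes received a negative control (NC), mimics of let-7d-5p (Let7d) or let-7e-5p (Let7e), or the material labelled mi699a-5p, whose nature is given by that name alone. They grew to the 8-cell stage and were taken apart into single blastomeres for Smart-seq2, a full-length single-cell RNA-seq method without molecular identifiers. The series belongs to a study of let-7, mitochondrial function and inherited metabolic decline, and no un-injected group is among the samples. The files held 81 distinct cells: NC had 22 cells of 3 mouse ids and Let7d 18 of 3, Let7e had 20 of 4 and mi699a-5p had 21 of 4. A cell held 1575609 to 4950404 reads, and the cells of one mouse id summed to 6329464 to 24037593 reads. Each mouse id is called a replicate of its group by the number in its label. What a mouse id stands for (1 embryo, or the embryos of 1 animal) is not given in the labels, and p-values measure the spread between these ids alone. Every id belongs to 1 group, and effects of a batch running with the groups and of the injection cannot be told apart. Levels are in CPM, a gene's reads scaled to the same total in every library, which are shares of a library, so the total RNA of a blastomere was not measured.

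Cell type markers were looked up among the rows. The table was filtered on low levels, so nothing is read from markers without a row, and the stage label was not tested. Of 20 markers of the 8-cell embryo, 19 had a row, led by Dppa3, a maternal chromatin factor, with a mean of 4938 CPM, and Sox2 had none. Of 14 cumulus and granulosa markers 2 had a row (Amhr2 and Serpine2), of 10 sperm markers 1 (Odf2), and of 12 blood and 10 skin and stroma markers 0. The summed embryo markers spanned 8262 to 8904 CPM in NC, 7400 to 8286 in Let7d, 8865 to 9300 in Let7e and 7778 to 11609 in mi699a-5p. Of 16 oocyte markers 9 had a row. Their sum spanned 293 to 384 CPM in NC, 214 to 461 in Let7d, 281 to 395 in Let7e and 173 to 273 in mi699a-5p. Y-linked genes moved with the mouse ids: the 4 with a row summed to 64.1 to 182 CPM in NC, 0.182 to 157 in Let7d, 48.1 to 182 in Let7e and 0.235 to 177 in mi699a-5p.

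Some libraries stood apart, and they bear on every result below. On the first principal component of 3448 genes that are no members and averaged more than 50 CPM, which held 14.7% of the variance, 8 of 81 libraries lay 5.46 to 14.6 scaled median deviations from the median. The other 73 lay between -2.14 and 3.02. The threshold of 5 was chosen after seeing the data. Of the 8 libraries, 3 were NC cells from 3 mouse ids, 2 were Let7e cells of replicate 1, and 3 were mi699a-5p cells, 2 of replicate 1 and 1 of replicate 2, while 0 were Let7d cells. Their depth (1608320 to 3094224 reads) and number of detected genes (6367 to 7231) lay within the range of the rest. In them, long transcripts took fewer reads and short transcripts more. The slope of a gene's log2 deviation on its log2 transcript length was -0.81 to -0.32 in the 8 and -0.40 to 0.26 in the 73. It was taken over genes of that component, which are no members, so it is not independent of how the 8 were chosen. The summed embryo markers, at 11315 to 26287 CPM, were also mostly above the other cells (6027 to 11448 CPM), although 9 of the 19 markers were on average higher and 10 lower. What sets these libraries apart was not tested, and results are given with and without them.

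The 2 let-7 sequences are shown first because they set which messages a mimic could pair with. The mature sequences, from RefSeq on GRCm38.p6, are given with the seed (bases 2 to 8) in capitals. They come from chromosome 13, 48536078 to 48536099 on the minus strand, and chromosome 17, 17830366 to 17830387 on the plus strand.
mmu-let-7d-5p: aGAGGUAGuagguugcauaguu
mmu-let-7e-5p: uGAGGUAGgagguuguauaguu
The 22-base sequences differ at 3 positions and share the seed. The label mi699a-5p could not be matched to a sequence, and none is shown.

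No proteasome gene carried a let-7 seed match in the 3' UTR of the transcript searched. Where principal transcripts of a gene ranked equally, the shortest was taken, and other transcripts were not searched. In the principal GENCODE M21 transcript of each gene, 0 of 44 members had a match to seed bases 2 to 8, or to bases 2 to 7 followed by an A, against 1054 of 7478 genes of the table (14.1%). Members have short 3' UTRs, with a median of 198.5 bases against 871 for all genes, and how far that accounts for the count was not tested. Elsewhere in the transcript, 5 members (11.4%; Psmb2, Psmc2, Psmd8, Psme2 and Psme4) held such a match, against 21.4% of all genes. For comparison, the 236 genes with an 8-base match in the 3' UTR had a median log2 fold change of 0.03 in Let7d against NC and -0.03 in Let7e against NC, and the 6424 genes without a match had medians of -0.0012 and 0.01. All 1054 genes with a match had medians of 0.07 and 0.03.

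Proteasome messages were abundant in 8-cell blastomeres. The 44 members are 0.558% of the genes and took 1.09% to 1.35% of the reads of a mouse id. Per kilobase of the principal transcript, their median was 156 CPM against 16.1 CPM for the 7601 genes with a length. The median 20S gene stood at 193 CPM per kilobase and the median 19S gene at 184. The median of the other factors was 26.3 CPM per kilobase. Lengths are those of 1 annotated transcript, and the transcripts used by the blastomeres were not measured.

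**Figure D1:**
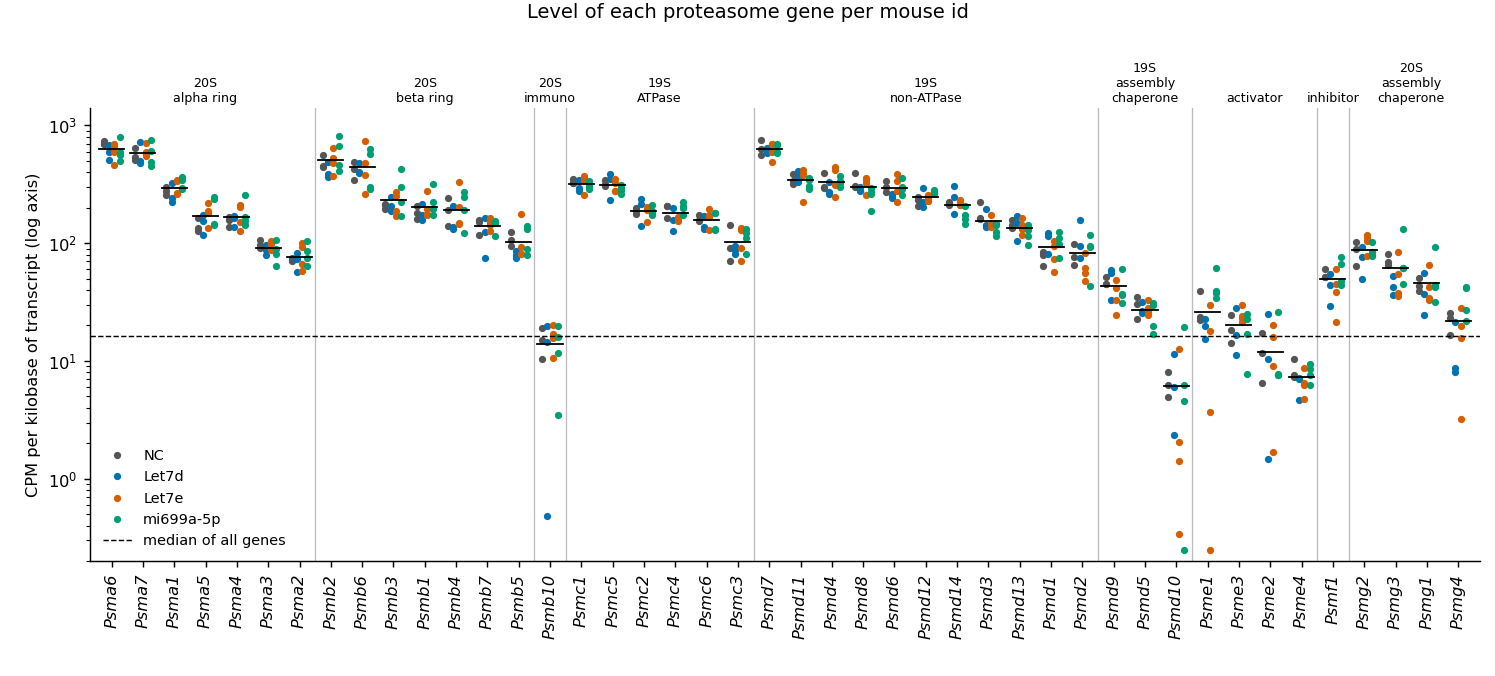
CPM per kilobase of principal transcript (log axis) of the 44 members, ordered by role, in the 14 mouse ids (points, coloured by group), with the mean of each gene (bar) and the median of all genes (dashed line, 16.1). Standard 20S and 19S subunits lie above the dashed line, while Psmb10, Psmd10, Psme2 and Psme4 average below it; zeros are drawn near the lower edge.

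Within the 20S core, the alpha subunit gene Psma6 was the highest member, at 627 ± 98.0 CPM per kilobase (SD, n = 14 mouse ids). The alpha subunit Psma7 followed among core genes at 581 ± 98.2. The lowest alpha genes were Psma3 and Psma2, at 91.2 and 77.0. Their annotated transcripts are long, at 2846 and 2911 bases, which lowers a value per kilobase. Without length, Psma3 had 260 CPM and Psma2 224 CPM. In the beta ring, the structural subunit Psmb2 led with 505 ± 129 CPM per kilobase.

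The 3 catalytic subunits differed in level. Psmb6, the caspase-like subunit, stood at 441 ± 135 CPM per kilobase. Psmb7, the trypsin-like subunit, stood at 139 ± 24.5. Psmb5, the chymotrypsin-like subunit, stood at 103 ± 29.8. The order of Psmb6 above the other 2 held in all 14 mouse ids by their ranges, which were 262 to 734 for Psmb6, 74.8 to 165 for Psmb7 and 74.9 to 177 for Psmb5; the ranges of Psmb7 and Psmb5 overlapped. Psmb10, the inducible counterpart of Psmb7 in the immunoproteasome, averaged 18.1 CPM, or 13.8 CPM per kilobase, at a percentile of 45.7 among all genes. It had a read in 73 of 81 cells.

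Among 19S ATPases the range was narrow. Psmc1 was highest with 319 ± 33.8 CPM per kilobase and Psmc3 lowest with 102 ± 24.96. Of the non-ATPase subunits, Psmd7, the inactive partner of the deubiquitinase, reached 626 ± 69.0. It lay between 777 and 1179 CPM in all mouse ids. Its level per kilobase did not differ beyond the spread from that of Psma6. Psmd11, a scaffold subunit of the lid, had 346 ± 51.4 on this length. Psmd4, a ubiquitin receptor, had 329 ± 59.4, and Psmd14, the deubiquitinase itself, 211 ± 39.9. The large scaffold subunits Psmd1 and Psmd2 were the lowest of the 11 non-ATPase genes, at 91.9 ± 21.7 and 82.9 ± 30.1. Their annotated transcripts are long, at 3112 and 2961 bases. Without length, Psmd2 was still the lowest of these genes at 246 CPM, while Psmd1 had 286 CPM, above Psmd13 at 270.

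The assembly chaperones lay in the lower part of the range. Of the 19S chaperones, Psmd9 stood at 43.0 CPM per kilobase, Psmd5 at 27.2, and the X-linked Psmd10 (gankyrin) at 6.15, the lowest of all members. Psmd10 had a read in 39 of 81 cells, and its mouse ids ran from 0 to 28.0 CPM. Of the 20S chaperones, Psmg2 stood at 87.9 CPM per kilobase, Psmg3 at 61.5, Psmg1 at 45.5 and Psmg4 at 21.7. Psmg1 and Psmg2 form one pair of chaperones for the alpha ring, and Psmg3 and Psmg4 form another.

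Activators that open the core without ubiquitin were low. Psme1 and Psme2, the subunits of the interferon-inducible activator, had 26.3 and 12.01 CPM per kilobase. Psme3, the nuclear activator, had 20.2, and Psme4, the large activator known from testis, 7.29. Psme2 has a near-identical annotated copy, Psme2b, and how the authors' counting divided reads between copies is not given in the sources used here. The inhibitor Psmf1 stood at 49.4 CPM per kilobase on its principal transcript and at 17.1 on all its exons. That length choice moved it by more than 1.5 times, and it did the same for Psmd11 (189.9 on all exons, which placed it below Psmd4, Psmd6, Psmd8 and Psmd14) and Psmb1 (202 against 104).

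Detection followed level. Of the 35 20S and 19S members, 33 had a read in all 81 cells, the exceptions being Psmb10 and Psmd10. Of all genes in the table, 34.1% did. None of the 9 other factors was found in every cell. They ranged from 61 cells for Psme2 to 80 cells for Psmg1, Psmg3 and Psme3. Their order did not always follow level: Psmf1, with a mean of 68.3 CPM, was found in 76 cells, fewer than Psmg3 with 45.1 CPM. After thinning every cell to 1575609 reads the counts changed for 2 members, Psme1 (76 to 74 cells) and Psmd10 (39 to 38).

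The first comparison asked whether the injected material altered proteasome expression. No member passed the test across the 4 groups (edgeR quasi-likelihood F test on reads summed per mouse id, Benjamini-Hochberg over all 7886 genes). The test called 0% of all genes, and 5.59% had an unadjusted p under 0.05, against 0 of 44 members. DESeq2 called 0 members and had 0 under an unadjusted p of 0.05. The smallest values were those of Psmd2 (unadjusted p = 0.107, adjusted p = 0.95), Psmd14 (unadjusted p = 0.113) and Psmd1 (unadjusted p = 0.18).

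Summed levels of the classes lay close together. The 15 genes of the 20S core summed to 4208, 4142 and 4171 CPM in NC, a mean of 4173 ± 32.9 (SD, n = 3). In Let7d they summed to 3757, 3386 and 4466 CPM, or 3870 ± 549 (n = 3). In Let7e they summed to 5118, 3697, 4227 and 4283 CPM, or 4331 ± 587 (n = 4). In mi699a-5p they summed to 5852, 4760, 3753 and 3593 CPM, or 4489.6 ± 1045 (n = 4). The groups overlapped, and the highest values were those of mi699a-5p replicate 1 and Let7e replicate 1, which hold 4 of the 8 libraries that stand apart. With those left out the 2 values were 4187 and 3584 CPM, and all 14 mouse ids lay between 3389 and 4470, with group means of 3825 (NC), 3873 (Let7d), 3950.5 (Let7e) and 3827 (mi699a-5p). The small spread of NC depended on the scaling: by library size alone its SD was 244 CPM.

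The 20 genes of the 19S particle summed to 7154, 7077 and 7432 CPM in NC, 6916, 6253 and 7992 in Let7d, 6160, 7392, 7239 and 7332 in Let7e, and 6749, 6913, 7304 and 6661 in mi699a-5p. Every group reached into the range of every other. The 9 other factors summed to 454, 392 and 429 CPM in NC and 286, 370 and 365 in Let7d. In Let7e they summed to 505, 422, 289 and 360, and in mi699a-5p to 477, 522, 393 and 449, both overlapping NC. Leaving out the 8 libraries, the Let7d values were 286, 370 and 366 against 405 to 441 in NC. The Let7d values lay below NC in both, but the groups overlapped with scaling by library size alone, where Let7d replicate 2 had 401 CPM and NC replicate 3 had 397.

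**Figure D2:**
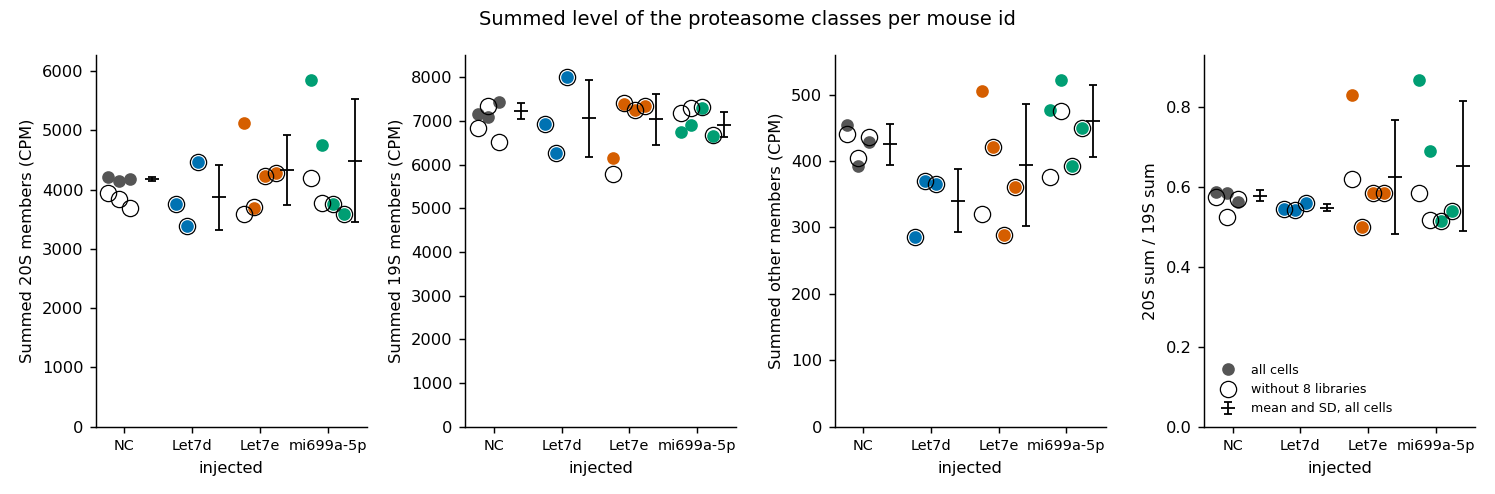
Summed CPM of the 20S, 19S and other members and the ratio of the first 2 sums in each mouse id (filled points), by injected group, with mean and SD per group (bars beside the points) and the values without the 8 libraries that stand apart (open circles). The 2 ratios above 0.8, Let7e replicate 1 and mi699a-5p replicate 1, fall to 0.620 and 0.584 without those libraries.

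Let7d against NC asks for the effect of let-7d. No member was called (adjusted p = 1 for each; DESeq2 also called 0), against 0.0127% of all genes, a single gene without a symbol. At an unadjusted p under 0.05 there were 0 of 44 members, by either tool, against 4.69% of all genes. Of the 44 members, 29 had a lower mean in Let7d and the median log2 fold change was -0.11, against 0.01 over all genes. Scaling by library size alone moved the median of all genes to 0.12 and that of the members to -0.0013, with 22 of 44 below 0, so that the members' median lay 0.12 below that of all genes under either scaling. The 20S median was -0.10, the 19S median -0.05 and the median of the other factors -0.35, with 8 of 9 below 0. With the 8 libraries left out these medians were 0.02, -0.02 and -0.23. The median of all 44 members was then -0.04, against 0.01 over all genes.

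The groups did not overlap for 6 of 44 members (13.6%), all below NC, against 12.0% of all genes: Psmg3, Psmd8, Psme4, Psma6, Psmd6 and Psmb5. Psmg3 and Psme4 alone of these did not overlap without the 8 libraries, 2 of 44 against 10.9% of all genes. Psmb5 read 112, 95.6 and 85.3 CPM in NC and 67.3, 71.6 and 77.7 in Let7d, a log2 fold change of -0.44 ± 0.32 (SE; 95% interval -1.12 to 0.25; edgeR quasi-likelihood, unadjusted p = 0.196). In the remaining cells the NC values became 102, 82.6 and 70.5 CPM, and the groups overlapped. Psmg3 read 59.8, 48.1 and 51.0 CPM in NC and 26.7, 38.7 and 31.3 in Let7d, a log2 fold change of -0.72 ± 0.42 (unadjusted p = 0.105). NC then lay at 45.6 to 49.7 CPM. In the other direction, the scaffold gene Psmd1 read 248, 264 and 198 CPM in NC and 254, 383 and 360 in Let7d, a log2 fold change of 0.49 ± 0.26 (unadjusted p = 0.0787), and the groups overlapped.

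Let7e against NC asks the same of let-7e and shares the NC ids with the comparison above. It called 0% of all genes and 0 members (DESeq2 also 0), and 0 of 44 members had an unadjusted p under 0.05 by either tool, against 4.02% of all genes. The member median was 0.01 for all 44, 0.10 for 20S, -0.04 for 19S and -0.37 for the other factors, 7 of 9 of them below 0. The median over all genes was 0.02. The 19S median was 0.02 in the cells other than the 8 libraries, and that of the other factors -0.52. The groups did not overlap for 1 of 44 members, Psma6, against 5.62% of all genes. Psma6 read 721, 767 and 731 CPM in NC and 617, 476, 717 and 690 in Let7e. Leaving out the 8 libraries, Psma6 overlapped and 2 other members, Psmg3 and Psme4, lay below NC, against 5.66% of all genes.

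The alpha subunit Psma5 had the smallest p in Let7e against NC. It read 156, 203 and 165 CPM in NC and 166, 233, 274 and 222 in Let7e, a log2 fold change of 0.36 ± 0.25 (unadjusted p = 0.177, edgeR quasi-likelihood). The activator subunit Psme1 had the lowest fold change, -1.12 ± 0.83, with 43.4, 24.8 and 26.4 CPM in NC and 33.3, 19.9, 0 and 4.103 in Let7e. Its 0 falls in replicate 3, which has 2 cells. Psmd3, a lid subunit, had -0.28 ± 0.20.

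In mi699a-5p against NC, also with the same NC ids, 0 members and 0% of all genes were called, and DESeq2 called 0 members. At an unadjusted p under 0.05 there was 1 of 44 members (2 by DESeq2), against 5.5% of all genes. The member was Psmd3, at 346, 351 and 482 CPM in NC and 309, 246, 321 and 265 in mi699a-5p. Every mi699a-5p value was below every NC value. The log2 fold change was -0.46 ± 0.20 (95% interval -0.89 to -0.04; edgeR quasi-likelihood, unadjusted p = 0.0334, adjusted p = 0.869). It was -0.33 with the 8 libraries left out (unadjusted p = 0.0941). The lid subunit Psmd8 stood at -0.40 ± 0.20 (unadjusted p = 0.056), and Psma5 stood at 0.45 ± 0.25 (unadjusted p = 0.0929). The groups did not overlap for 4 of 44 members, 9.09% against 8.38% of all genes: Psmd3, Psmd8 and the deubiquitinase Psmd14 below NC, and the lid subunit Psmd12 above. With the 8 libraries left out they were again 4 (9.05% of all genes), but Psmd12 was the only one in common: Psma1 and Psmd12 lay above NC, and Psmg3 and Psma6 below. Psmd12 read 397, 466 and 438 CPM in NC and 512, 540, 527 and 511 in mi699a-5p, a log2 fold change of 0.27 ± 0.18 (unadjusted p = 0.145) that was 0.47 without the 8 libraries (unadjusted p = 0.0159). The medians were 0.12 for 20S, -0.03 for 19S and 0.05 for the other factors, against 0.04 over all genes. Leaving out the 8 libraries turned the signs of the last 2 classes, to 0.07 for 19S (12 of 20 above 0, from 7) and -0.03 for the other factors (3 of 9 above 0, from 7).

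The 2 let-7 mimics were compared directly. Let7e against Let7d called 0% of all genes and 0 members (DESeq2 also 0). At an unadjusted p under 0.05 there was 1 of 44 members by each tool, against 5.39% of all genes. The groups overlapped for 44 of 44 members, while 6.07% of all genes did not overlap. The member with the smallest p was Psmd2, a large scaffold subunit of the 19S base. Psmd2 read 279, 222 and 466 CPM in Let7d and 141, 244, 182 and 164 in Let7e, a log2 fold change of -0.82 ± 0.31 (95% interval -1.48 to -0.16; edgeR quasi-likelihood, unadjusted p = 0.0174, adjusted p = 0.924). The Let7e value of 244 lay inside the Let7d range. Psmg2 stood at 0.50 ± 0.27 (unadjusted p = 0.082) and Psmd1 at -0.38 ± 0.24 (unadjusted p = 0.137). All 15 genes of the 20S core had a fold change above 0, with a median of 0.18, while 12 of 20 of the 19S genes were below 0. Without the 8 libraries, none of which is a Let7d cell, 11 of 15 were above 0 and the median was 0.06. Scaling by library size alone gave 12 of 15, with a median of 0.08 against -0.09 for all genes.

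**Figure D3:**
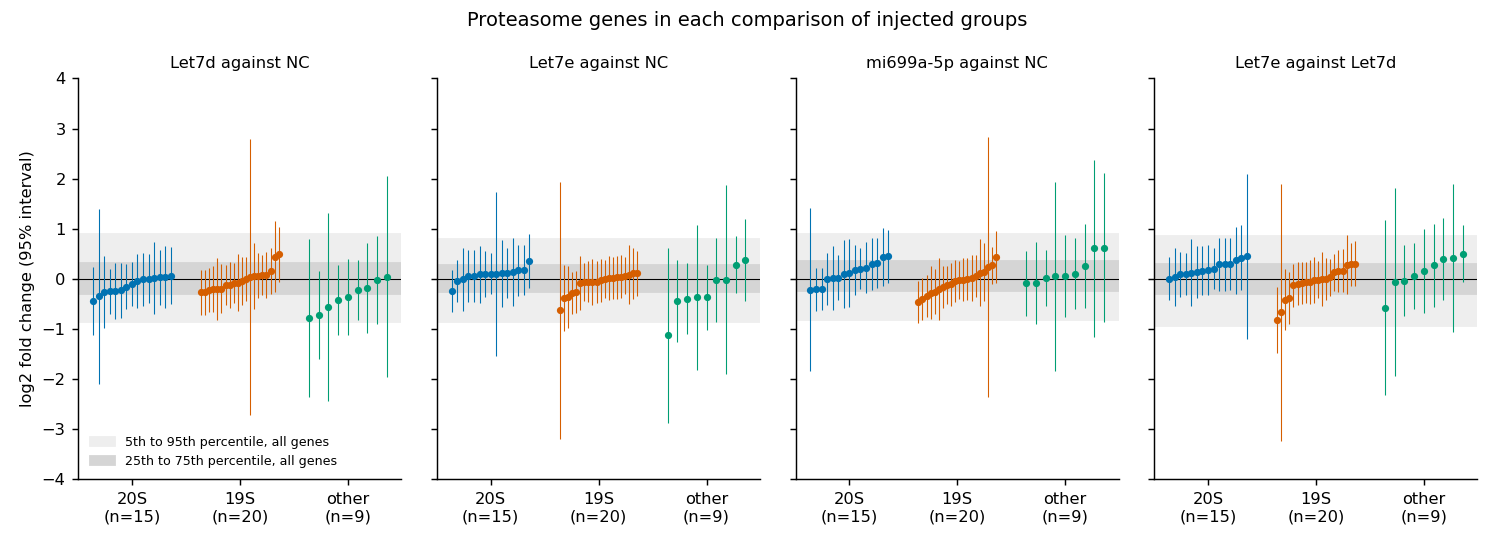
Log2 fold change of each member (points, with 95% intervals) in the 4 comparisons, by class, over the 5th to 95th and 25th to 75th percentiles of all 7886 genes (grey bands). Most 20S and 19S members lie within or near the inner band, and the widest intervals belong to the low genes Psmd10, Psme1, Psme2 and Psmb10.

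The precision of these comparisons can be read from the intervals. The median half-width of the 95% interval over members was 0.55 in Let7d against NC and 0.52 in each of the other 3 comparisons on the log2 scale. The whole interval stayed within a 2-fold change in either direction for 32 of 44 members in Let7d against NC, 34 in Let7e against NC, 37 in mi699a-5p against NC and 32 in Let7e against Let7d. For the other members a 2-fold change was not excluded at this number of mouse ids.

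Between blastomeres of one mouse id, proteasome genes varied less than the median gene. The SD of log2(CPM + 1) between cells of a mouse id had a median of 0.62 over the 44 members (0.60 for 20S, 0.53 for 19S and 1.40 for the others) and 1.55 over all genes. Abundant genes vary less on this scale, so each SD was set against the running median of genes at the same level. By that measure 34 of 44 members lay below the trend, at a median percentile of 33.4. The SD between mouse ids of a group had a median of 0.29 over members and 0.70 over all genes. The SD between group means had medians of 0.13 and 0.34. Each mouse id is here the mean of its 2 to 8 cells, so these SDs include spread between cells. Leaving out the 8 libraries, the median SD between cells was 0.47 and 34 members lay below the trend.

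Psmd7 was the steadiest member, with an SD of 0.30 and levels of 466 to 1666 CPM over 81 cells. Relative to the trend the most even genes were Psmb10 (SD 1.24, percentile 1.74), Psmg4 (SD 1.52, percentile 4.02) and Psmg3 (SD 0.996, percentile 7.76), all low. With log2(CPM + 10) in place of log2(CPM + 1) the lowest percentile was that of the abundant Psma3 (4.91), ahead of Psmb10 (5.64), and Psmg4 stood at 10.02. The inhibitor Psmf1 was the most uneven, with an SD of 1.93 at a percentile of 99.02. It ran from 0 to 233 CPM, and 76 of 81 cells had a read. The chaperone Psmg2 followed with an SD of 1.35 (percentile 85.6), then Psmd1 with 0.87 (percentile 82.8). Psmd1 stood out through the libraries that stand apart: without them its SD was 0.55, at a percentile of 57.95.

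Psmd1 and Psmb5 moved apart in the libraries that stand apart. Psmd1 had 12.3 to 146 CPM in those 8 cells (median 67.9) and 81.7 to 605 in the other 73 (median 289). Psmb5 had 118 to 477 CPM in the 8 (median 195) and 27.7 to 163 in the 73 (median 75.01). Against the other cells of the same mouse id, Psmd1 was lower in 8 of 8, by 2.05 on average on the log2 scale. Psmb5 was higher in 8 of 8, by 1.56. Of the 15 core genes 8 were higher in all 8 libraries, and Psmb7 alone had a lower mean. Of the 20 19S genes 14 had a lower mean, and Psmd1 was the only one lower in all 8. Among 3448 genes that are no members, 11.1% were higher and 14.5% lower in all 8 libraries.

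Short transcripts were mostly higher in the 8 libraries and long ones mostly lower. Of the core genes, Psmb3 (766 bases, 1.57 higher), Psmb5 (899 bases), Psmb10 (1311 bases, 1.52 higher) and Psmb2 (859 bases, 1.49 higher) had the largest positive differences. The 3 longest members had negative ones: Psmd1 (3112 bases), Psme4 (6491 bases, mean difference -1.41) and Psmd5 (4397 bases, -1.2015). Short genes outside the core moved with the core: the activator Psme1 (1112 bases) was 1.91 higher and the chaperone Psmg3 (733 bases) 1.55 higher, each in 8 of 8. Psma2, with an annotated length of 2911 bases, was 1.01 higher, and Psmf1, with 1384 bases, had a mean difference of -1.22, so these did not follow this order. The part of transcript length in these differences was not tested.

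The ratio of summed 20S to summed 19S reads set the same libraries apart. It compares sets of genes of different length, so its absolute size has no meaning, but it can be compared between cells. Over 81 cells its median was 0.553. In the 73 other cells it ran from 0.373 to 0.671. In the 8 libraries it was 1.80 and 1.99 in mi699a-5p replicate 1, 2.36 in mi699a-5p replicate 2, 0.994 and 1.36 in Let7e replicate 1, 1.198 in NC replicate 2, 0.662 in NC replicate 1 and 0.545 in NC replicate 3. Hence 6 of the 8 exceeded every other cell and 2 did not. Over 81 cells the ratio and the length slope of a library had r = -0.70, and over the 73 cells r = -0.01. The ratio and the first principal component had r = 0.88 over 81 cells and 0.09 over the 73. The ratio and the reads per cell had r = -0.17 and 0.10. These cells share mouse ids, so the correlations are descriptions.

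**Figure D4:**
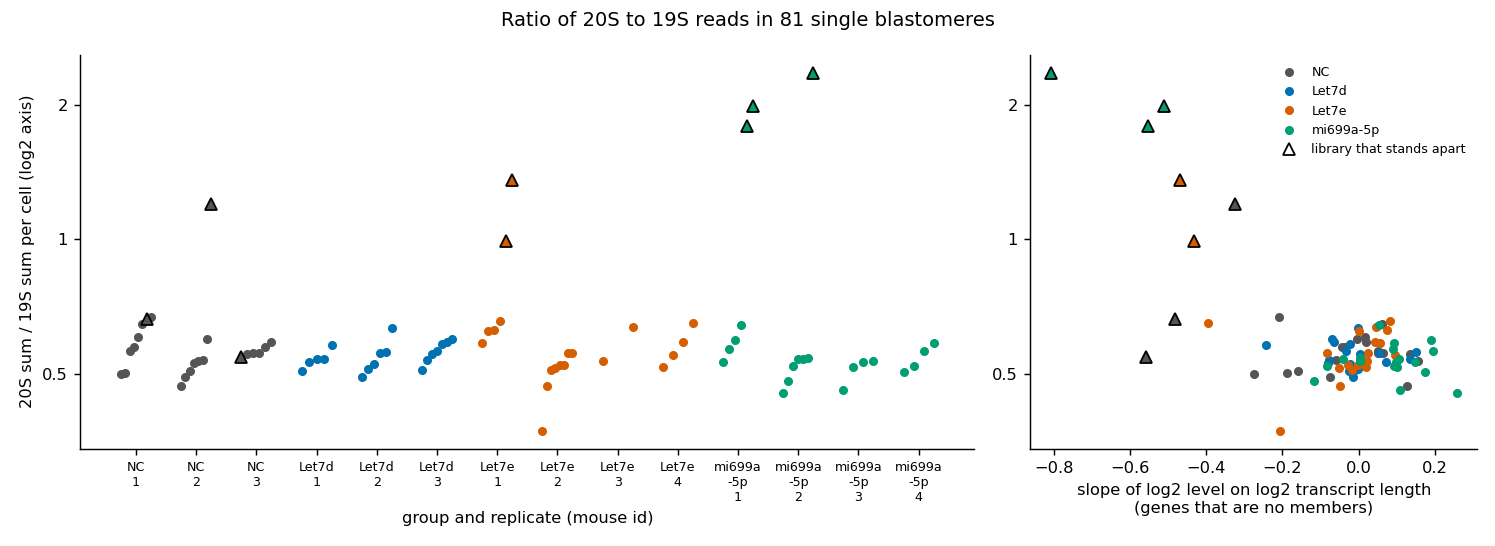
Ratio of summed 20S to summed 19S reads (log2 axis) in each of 81 blastomeres, by mouse id (left) and against the slope of log2 level on log2 transcript length over genes that are no members (right); triangles mark the 8 libraries that stand apart. The 6 highest ratios, 0.994 to 2.36, belong to triangles, and all circles lie between 0.373 and 0.671.

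Genes of the 20S core were correlated over blastomeres, and much of that pattern rested on the same libraries. After subtracting the mean of each mouse id, the median correlation of log2(CPM + 1) was 0.41 over the 105 pairs of core genes, 0.22 over the 190 pairs of 19S genes and 0.03 over the 300 pairs of a core and a 19S gene. It was 0.03 over pairs of all genes above 50 CPM. The closest pairs were Psmb2 with Psmb1 (r = 0.75), Psmb3 with Psmb5 (r = 0.72) and Psmb2 with Psmb5 (r = 0.71), and the most opposed was Psmd1 with Psmb5 (r = -0.60). In the other 73 cells the 3 medians came to 0.18 within the core, 0.12 within 19S and 0.15 between them, with 0.01 for all genes. There the closest pairs joined both classes: Psma7 with the ATPases Psmc3 (r = 0.61) and Psmc2 (r = 0.57), and Psma1 with Psmd6 (r = 0.55). Thinning every cell to the same number of reads left the medians over all cells at 0.41, 0.22 and 0.03. What amplification shared within a library adds to these correlations was not tested.

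**Figure D5:**
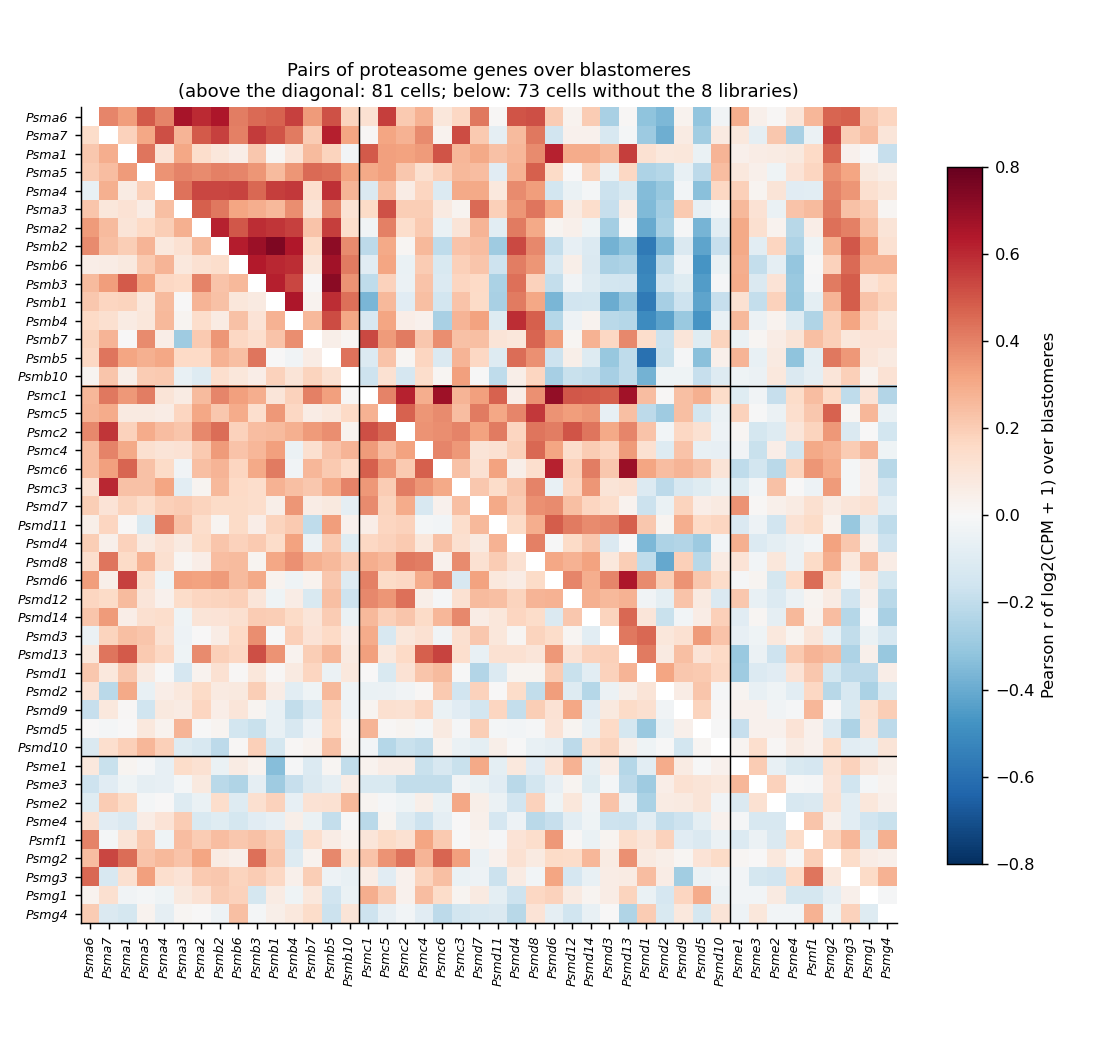
Pearson r of log2(CPM + 1) between members over blastomeres after subtracting mouse id means, above the diagonal in all 81 cells and below it in the 73 cells without the 8 libraries; lines separate 20S, 19S and other members. The block of core genes above the diagonal (median 0.41) and the opposed row of Psmd1 fade below it (median 0.18).

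The promoters of Psmb3 and Psmb5, which moved together, and of Psmd1, which moved against them, are shown as an aid to comparison. These movements were seen over all cells, with the libraries that stand apart included. There Psmb3, Psmb5 and Psmd1 had r = -0.76, -0.75 and 0.60 with the length slope of a library. Without the libraries that stand apart these were -0.41, -0.38 and 0.08. Whether the promoters have a part in the movements was not tested. RefSeq on GRCm38.p6 gave a promoter (250 bases before to 50 after the annotated start) for 37 of 44 members. Capitals mark 2 motifs on either strand: the core of the antioxidant response element, TGACNNNGC, which Nfe2l1 and Nfe2l2 bind, and the CCAAT box. Psmb3 is at chr11:97703184-97703483 on the plus strand, Psmb5 at chr14:54617946-54618245 on the minus strand and Psmd1 at chr1:86064369-86064668 on the plus strand.
Psmb3: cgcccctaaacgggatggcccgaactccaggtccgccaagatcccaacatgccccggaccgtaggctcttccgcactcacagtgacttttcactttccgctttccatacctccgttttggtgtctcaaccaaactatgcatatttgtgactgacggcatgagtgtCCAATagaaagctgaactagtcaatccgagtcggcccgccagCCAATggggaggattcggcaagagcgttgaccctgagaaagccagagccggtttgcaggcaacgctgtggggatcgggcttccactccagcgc
Psmb5: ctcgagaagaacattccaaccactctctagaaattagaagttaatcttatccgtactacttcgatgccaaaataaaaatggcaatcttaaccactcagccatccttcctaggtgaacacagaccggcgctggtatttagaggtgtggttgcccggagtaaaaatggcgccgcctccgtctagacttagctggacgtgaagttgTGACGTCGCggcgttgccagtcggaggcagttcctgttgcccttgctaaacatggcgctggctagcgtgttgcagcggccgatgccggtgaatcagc
Psmd1: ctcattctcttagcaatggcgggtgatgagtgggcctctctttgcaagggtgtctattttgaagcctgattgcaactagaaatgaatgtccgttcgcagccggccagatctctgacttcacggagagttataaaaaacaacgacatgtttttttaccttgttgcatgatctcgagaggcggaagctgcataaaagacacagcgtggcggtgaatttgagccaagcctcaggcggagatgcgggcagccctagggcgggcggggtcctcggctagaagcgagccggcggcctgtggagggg
Psmb5 held the response element core at position -47, Psmb3 held 2 CCAAT boxes, and Psmd1 held neither in this window. The response element core was found in 6 of 37 members (16.2%; Psmb5, Psmb6, Psmc6, Psmd12, Psmd9 and Psme4) and in 17.3% of the 6219 genes of the table with a promoter. The CCAAT box was found in 12 of 37 members (32.4%), 6 of 12 core genes among them, and in 43.6% of all genes.

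Genes that work with the proteasome were examined as lists. In each comparison with NC and in Let7e against Let7d, 0 genes of the 5 lists were called. The lists' medians are given beside those of all genes (0.01 for Let7d, 0.02 for Let7e and 0.04 for mi699a-5p, each against NC). Proteasome parts and chaperones without a Psm symbol had 12 rows for 15 symbols and medians of -0.10, 0.02 and 0.04. They include the receptor Adrm1 (242 to 367 CPM over mouse ids), the deubiquitinase Usp14 (334 to 1299.7 CPM) and the core maturation factor Pomp (176 to 313 CPM). Uchl5, a deubiquitinase of the 19S particle, had the smallest p in Let7d against NC, with a log2 fold change of -0.63 ± 0.29 (edgeR quasi-likelihood, unadjusted p = 0.0456, adjusted p = 1). In Let7e against NC it was the stress-induced Zfand2a (0.54 ± 0.29), in mi699a-5p against NC the Vcp adaptor Ubxn7 (0.74 ± 0.29, unadjusted p = 0.0217), and in Let7e against Let7d the proteasome adaptor Ecpas (-0.67 ± 0.30, unadjusted p = 0.0399).

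Shuttle factors and the Vcp segregase, which bring and extract ubiquitin-tagged proteins, had 14 rows and medians of -0.01, 0.08 and 0.07 against NC. The genes with the smallest p were Ufd1 in Let7d (0.44 ± 0.24), Faf2 in Let7e (0.44 ± 0.23) and Ubxn1 in mi699a-5p (-0.37 ± 0.17). In Let7e against Let7d it was again Ubxn1 (0.42 ± 0.18). Transcription factors of proteasome genes and their processing had 11 rows and medians of 0.05, 0.10 and -0.14. Nfe2l1, the factor that raises proteasome genes when proteasomes are blocked, lay between 28.2 and 85.7 CPM, and Nfe2l2 between 2.55 and 48.6. Nrf1, nuclear respiratory factor 1 and a different gene from Nfe2l1, had the smallest p of this list in each comparison with NC. Its log2 fold changes were 0.61 ± 0.29, 0.55 ± 0.27 and 0.51 ± 0.27, and these comparisons share the NC ids. Mafk, a small Maf partner of Nfe2l1, had 1.15 ± 0.51 in Let7e against Let7d.

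Ubiquitin genes and E1 enzymes had 8 of 8 rows and medians of -0.11, 0.13 and 0.18. Uba1, the main E1 enzyme, had 0.83 ± 0.36 in Let7d against NC (unadjusted p = 0.0354) and -0.61 ± 0.34 in Let7e against Let7d. It read 281, 396 and 372 CPM in NC, 311, 529 and 1022 in Let7d, 376, 442, 514 and 294 in Let7e, and 824, 485, 360 and 712 in mi699a-5p, and each group overlapped NC. Ubb had 0.19 ± 0.25 in Let7e against NC. Partners of the immunoproteasome in antigen presentation had 4 rows of 10 symbols, led by H2-D1 with a mean of 49.4 CPM, and rows for Tap1 and Tap2 were not found. The 4 genes had medians of -0.63, -0.52 and -0.0077 against NC, in the order used for the other lists. For Let7d against NC, 3 of the 4 were lower, and H2-D1 alone was higher. Both other comparisons with NC had 2 genes higher and 2 lower. H2-D1 had the smallest p of this list for Let7d (0.80 ± 0.52) and mi699a-5p (0.63 ± 0.49) against NC. It also had the smallest p for Let7e against Let7d (-0.76 ± 0.48). For Let7e against NC the gene was H2-K1 (-1.15 ± 0.56).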

How the data were processed

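Single blastomeres were sequenced by Smart-seq2, per the labels' protocols. The authors deposited raw read counts per gene and cell, in a table that its name describes as filtered on CPM. Per the submitters' processing notes, STAR was used with GRCm38.p6, and the counting program is not given in the sources used here. Of 92 labelled cells, 82 were matched to a column and 10 are not analysed here. The deposited RPKM values were not used.

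One pair of columns of Let7d replicate 2 differed by about the sampling noise (chi-square of 1.05 per gene, against 28.7 for the next of 3321 pairs) and was summed as 1 cell. Counts were summed per mouse id and tested in edgeR 4.0.16 (R 4.3.3) with TMM, filterByExpr (0 genes removed) and the quasi-likelihood F test, in 1 fit of all 4 groups, two-sided, with Benjamini-Hochberg adjustment at 0.05. The script was tested on simulated data. CPM per mouse id are scaled by the TMM factors; CPM per cell use the cell's total. Alternatives used DESeq2 1.42.0 and limma 3.58.1. Spread and correlations between cells and class sums are descriptions with no test. No molecular identifiers were used, so reads include amplification copies.

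Members and lists were chosen with earlier results of these data known. Named are the 3 members with the smallest p in each test, the 3 highest and 3 lowest per kilobase, the 3 most and 3 least variable between cells, members of set roles (catalytic, immune, activating, inhibiting, assembly, deubiquitinating and receptor subunits), and the gene with the smallest p of each pathway list in each comparison. One result under the last of these is not reported here. Psmb1 to Psmb4, Psma1 to Psma4, Psmc1 to Psmc3, Psmd6, Psmd7, Psmd11, Psmd12, Psmd13 and the members that do not overlap between groups were named after their values were seen, as were the genes of the pathway lists given only by their range.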

Additional observations from a re-analysis of the deposited data

Results flagged for a closer look

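In groups of 4 mouse ids, the highest or lowest value was compared with the others: a value was taken as far from the others where its gap to the nearest one, as a share of the group's range, exceeded Dixon's critical value. Of 96 groups of values (the 3 class sums, the ratio of 20S to 19S and the 44 members, in Let7e and mi699a-5p), 5 met this, where chance gives about 1 in 20. Let7e replicate 1 gave 3 of them. Its summed 19S level was 6160 CPM, against 7239 to 7392 in the other Let7e replicates. Its Psmb5 level was 158.9 CPM, against 72.2 to 83.99. Its Psmd10 level was 18.2 CPM, against 0.49 to 2.93. This mouse id holds 2 of the 8 libraries that stand apart. Without them its 19S sum was 5778 CPM, against 7246 to 7398 in the other Let7e replicates. Its Psmb5 level was then 91.0 CPM, against 72.2 to 84.1, and its Psmd10 level 21.8 CPM, against 0.49 to 2.93.

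In mi699a-5p, Psme2 reached 25.2 CPM in replicate 1, which holds 2 of the 8 libraries, against 7.24 to 7.39 in the other replicates; without them it had 11.3 CPM, against 7.35 to 7.68. Psmb7 stood at 133.1 CPM in replicate 4, which holds none of the 8, against 172 to 178.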

How the results depend on the processing

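No member passed an adjusted p of 0.05 in any comparison under the 26 alternatives (DESeq2, library size alone, no filter, a mean CPM of at least 10, limma on equally weighted cells, thinned cells, one of the duplicated columns, the mouse id number as a block, a Y-linked covariate, 2 groups only, each mouse id left out, and 2 added after seeing the data that leave out the 8 libraries). The smallest adjusted p of a member was 0.556 over those 5671 tests, and the 312 fold changes of the 3 leading members of each comparison kept their sign. Those members were chosen by their p in the same data, so the kept signs are no independent test. Class medians could turn: that of 19S in mi699a-5p against NC went from -0.03 to 0.07 without the 8 libraries. With the mouse id number as a replicate block, 0 members were called. The labels do not say whether equal numbers pair the ids. Same-numbered ids of different groups had a mean correlation of 0.01 (-0.13 to 0.13, 19 pairs). Other-numbered ids of different groups had -0.0021 (-0.18 to 0.18, 54 pairs), and 5 of 14 ids correlated best with their own number. These correlations cannot exclude a batch shared by ids of one number. Over all genes, Let7d against NC called 1 gene by edgeR and 3 by DESeq2, mi699a-5p against NC 0 and 6, Let7e against Let7d 0 and 8, and the test across groups 0 and 15; under every other alternative each comparison called 0 to 2 genes. The median of each class sum over the 14 mouse ids moved by less than the SD between them under library size alone, the mean of CPM per cell and without the 8 libraries; group means moved more, the NC 20S mean from 4173 ± 32.9 CPM to 4080 ± 244 with library size alone and 3825 ± 121 without the 8 libraries. Without the 8 libraries the median correlation changed to 0.175 within the core, 0.124 within 19S and 0.154 between them; it moved by less than 0.05 with thinned cells or log2(CPM + 10). With 3 or 4 mouse ids per group, changes of 2-fold and more can also be missed for low members such as Psmd10 and Psme2. The widest half-width of a member's 95% interval was 2.56 to 2.75 on the log2 scale over the 4 comparisons.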
